A study of Mus musculus with 4 samples.

Results

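The conjugation, esterase and dehydrogenase enzymes described here are the genes of 6 families of liver detoxification enzymes, followed in N6-methyladenosine (m6A) peak lists of mouse liver RNA. Members were all genes whose symbol in either peak list began with Ugt, Sult, Ces, Aldh or Adh and a digit, or with Gst, a class letter and a digit. The rule found 57 of the 9650 genes with a peak: 16 Ugt, 9 Gst, 2 Sult, 12 Ces, 13 Aldh and 5 Adh genes. RefSeq names 115 mouse genes that fit the rule, and the other 58 had no peak in either list, which does not show that their RNA was unmethylated. The lists come from methylated RNA immunoprecipitation sequencing (MeRIP-seq), in which fragments bound by an anti-m6A antibody (IP) are sequenced beside RNA that was not precipitated (input). One list was made from livers of Alkbh5-HKO mice (HKO), named for the loss of the m6A demethylase ALKBH5, and the other from livers of Alkbh5flox/flox mice (FF), whose Alkbh5 gene carries flox sites. HKO is not spelled out in the labels, which name neither a Cre driver nor the deleted part of the gene. All mice ate normal chow and were 9 weeks old. For each genotype 300 μg of RNA pooled from 3 mice went into 1 IP and 1 input library, so that differences between the lists are unreplicated and carry no test.

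Many of these enzymes take part in the clearance of drugs, hormones, bilirubin and reactive aldehydes by the liver. UDP-glucuronosyltransferases (Ugt), glutathione S-transferases (Gst) and sulfotransferases (Sult) attach a sugar acid, glutathione or a sulfate group, carboxylesterases (Ces) cleave ester bonds of drugs and lipids, and alcohol and aldehyde dehydrogenases (Adh, Aldh) oxidise alcohols and aldehydes. Many of the genes lie in clusters of close copies. m6A is the most common internal modification of mRNA, is known to be dense near stop codons and in long internal exons, and can influence how long an mRNA persists.

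The HKO list held 14693 peaks and the FF list 14057. Alkbh5 itself had 0 peaks in the HKO list and 3 in the FF list. Hepatocyte markers with a peak numbered 9 of 10 in HKO and 6 of 10 in FF, with 5 in both (Apoa1, Apob, Serpina1a, Hnf4a and Pck1), 4 in HKO alone (Ttr, Cps1, Cyp2e1 and Ass1) and 1 in FF alone (Alb). Markers of other liver cells with a peak in each list numbered 2 of 6 for Kupffer cells, 3 of 5 for endothelial cells and 1 of 4 for cholangiocytes, and 4 of 5 (HKO) and 2 of 5 (FF) for stellate cells and fibroblasts. The files used here give no read totals, which leaves library depth unknown. A peak's presence depends on RNA level as well as methylation, and in whole liver fewer cells of a type and less RNA per cell cannot be told apart.

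Members carried 76 peaks on 49 genes in the HKO list and 70 peaks on 46 genes in the FF list. Of the 57 genes, 38 had peaks in both lists, beside 7291 of all 9650 genes with a peak. Another 11 had them only in HKO (19.3%, against 13.2% of all genes with a peak), and 8 only in FF (14.0%, against 11.2%). The 11 were Gsta3, Gstm2, Gstt1, Gstt2, Ces1f, Ces2a, Ces2g, Aldh1a7, Aldh9a1, Adh4 and Adh5, and the 8 were Ugt2b37, Ugt2b38, Gstm5, Gsto1, Gstt3, Ces2b, Aldh1l1 and Aldh3b1. Of the 57 members, 18 had more peaks in the HKO list, 14 had more in the FF list and 25 had the same number. This comparison of peak numbers was not made over all genes. No member had more than 4 peaks in a list.

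**Figure D1:**
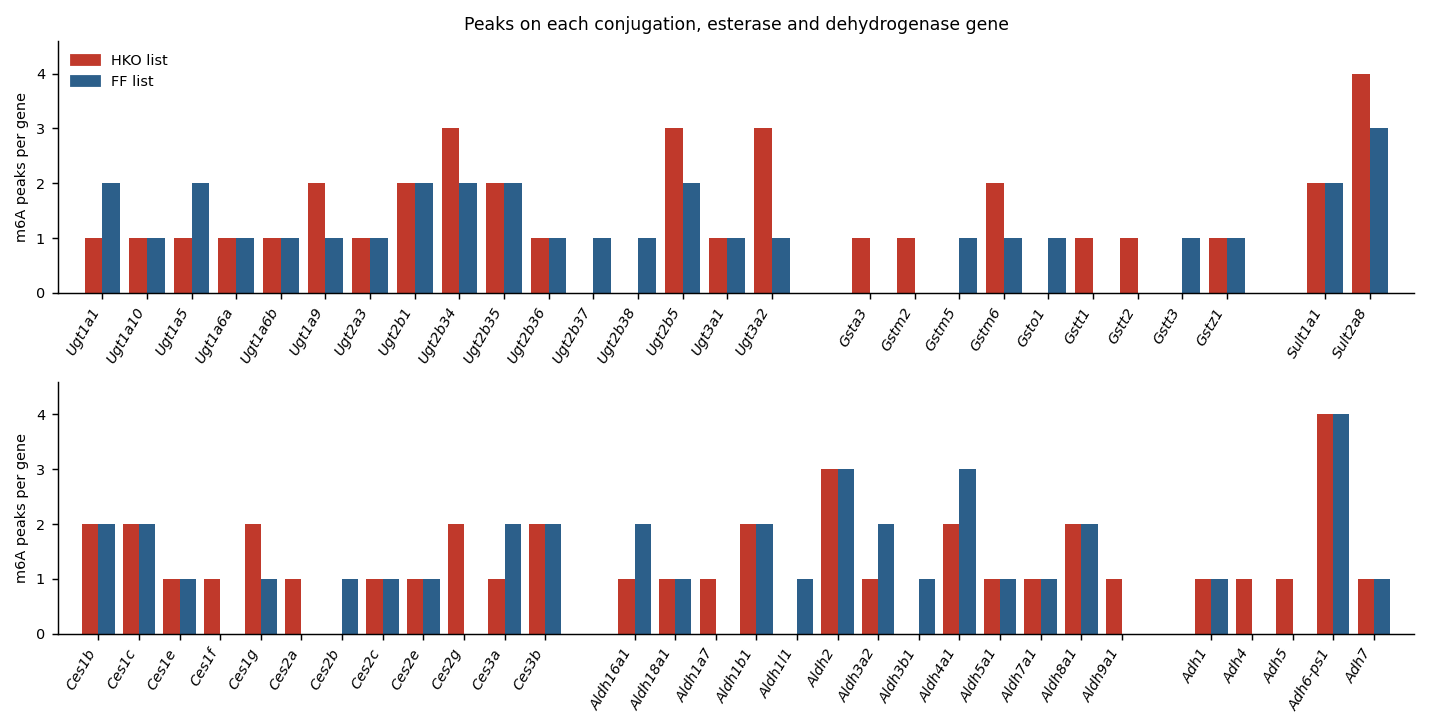
Number of m6A peaks on each of the 57 members, with bars for the HKO list beside bars for the FF list and genes grouped by family. Bars in both lists are drawn for 38 genes, in HKO only for 11 and in FF only for 8, beside 13.2% (HKO only) and 11.2% (FF only) of all genes with a peak.

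A peak counted as shared if any exonic base of it, on its strand, lay in a peak of the other list, and as list-specific if none did. In the HKO list 24 of 76 member peaks were list-specific (31.6%, 95% Wilson interval 22.2 to 42.7), beside 28.5% of all HKO peaks. In the FF list the number was 17 of 70 (24.3%, 15.8 to 35.5), beside 25.2% of all FF peaks. Both shares lay near those of their lists. List-specific peaks are called strong below where q was at most 1e-05 and IP exceeded input at least 2-fold. They numbered 17 in the HKO list (22.4%, 14.5 to 32.9, against 8.87% of all HKO peaks). In the FF list they numbered 4 (5.71%, 2.24 to 13.8, against 6.40% of all FF peaks). Intervals cover counting error only, and peaks of neighbouring copies are not independent.

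The position of member peaks along the gene was compared with that of all peaks of the same list. Start peaks, with their centre no more than 500 bp from the start of the gene, made up 22 of 76 HKO member peaks (28.9%, 20 to 40) beside 7.38% of all HKO peaks. In the FF list they made up 27 of 70 (38.6%, 28 to 50.3) beside 15.0% of all FF peaks. Shared peaks accounted for 18 of the 22 in the HKO list and 18 of the 27 in the FF list. Over all start peaks, shared ones numbered 888 of 1085 in the HKO list and 883 of 2110 in the FF list. Within 1000 bp of the gene end lay 27 HKO member peaks (35.5%, 25.7 to 46.7, against 30.9% of all HKO peaks) and 19 FF member peaks (27.1%, 18.1 to 38.5, against 26.5%). The 24 HKO-specific member peaks lay at the gene end in 13 cases and at the start in 4, beside 33.5% and 4.71% of all HKO-specific peaks. The 17 FF-specific ones lay at the end in 5 cases and at the start in 9, beside 17.0% and 34.7% of all FF-specific peaks. The same order, with the larger end share in HKO and the larger start share in FF, held over all list-specific peaks. With both lists held to a q of 1e-05 or less, FF-specific member peaks numbered 8 in place of 17, with 1 at the end and 4 at the start. Peaks whose exonic sequence spans an exon junction made up 36.8% (26.9 to 48.1) of HKO member peaks against 13.9% of all, and 27.1% (18.1 to 38.5) of FF member peaks against 17.4%.

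**Figure D2:**
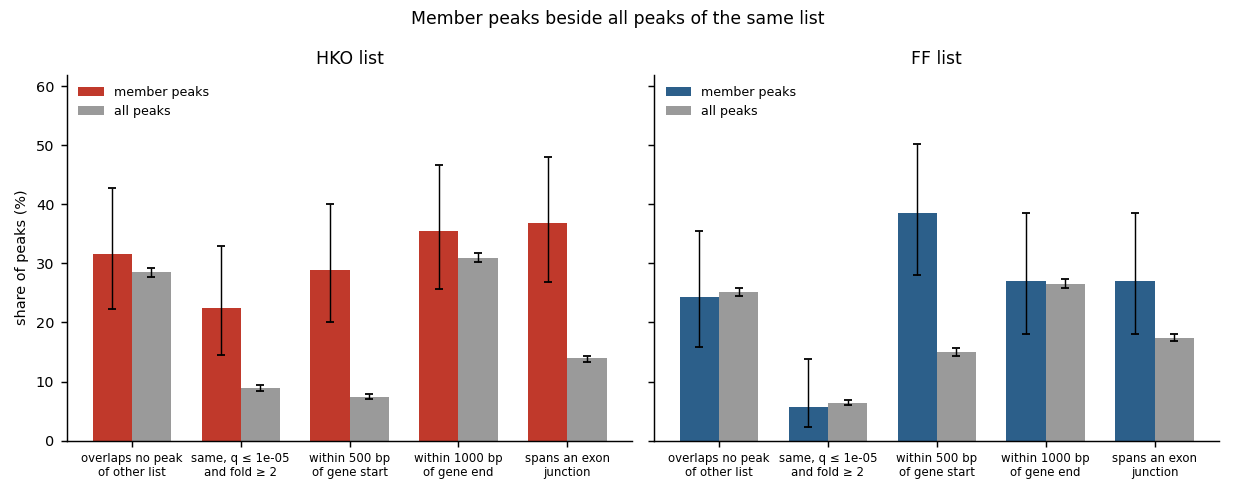
Share of peaks (%) that overlap no peak of the other list, that overlap none and have q of 1e-05 or less and fold of 2 or more, that lie at the gene start or end, or that span an exon junction, in the HKO list (left) and the FF list (right). Coloured bars are member peaks, grey bars all peaks of that list and whiskers 95% Wilson intervals. The start share of members was 28.9% in the HKO list and 38.6% in the FF list, against 7.38% and 15.0% of all peaks.

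As a set, member peaks combined low fold enrichment with very small q, though not in every family or group. Each fold is the authors' own value for a peak, IP relative to its input. The lists come from separate IP reactions, so their folds are set side by side without a direction. The median fold was 6.33 for HKO member peaks, against 10.4 for the HKO list, and 4.28 for FF member peaks, against 8.80 for the FF list. Folds lay below the median of their list in 53 of 76 HKO and 55 of 70 FF member peaks. The median log10 q was -57.7 for HKO member peaks, against -8.70 for the HKO list, and -24.1 for FF member peaks, against -7.79 for the FF list. Both at once, a fold below and a q smaller than the list's median, held for 57.9% of HKO member peaks against 23.5% of all HKO peaks, and for 54.3% of FF member peaks against 24%. A log10 q given in the files as minus infinity occurred in 17 HKO member peaks (22.4%, against 2.08% of the HKO list) and 8 FF member peaks (11.4%, against 1.71% of the FF list). Exceptions included the HKO peaks of Ugt1a and Ugt3a genes, with median folds of 14 and 12.2, above that of the HKO list. In FF the median log10 q of Gst peaks was -6.82, weaker than that of the FF list.

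**Figure D3:**
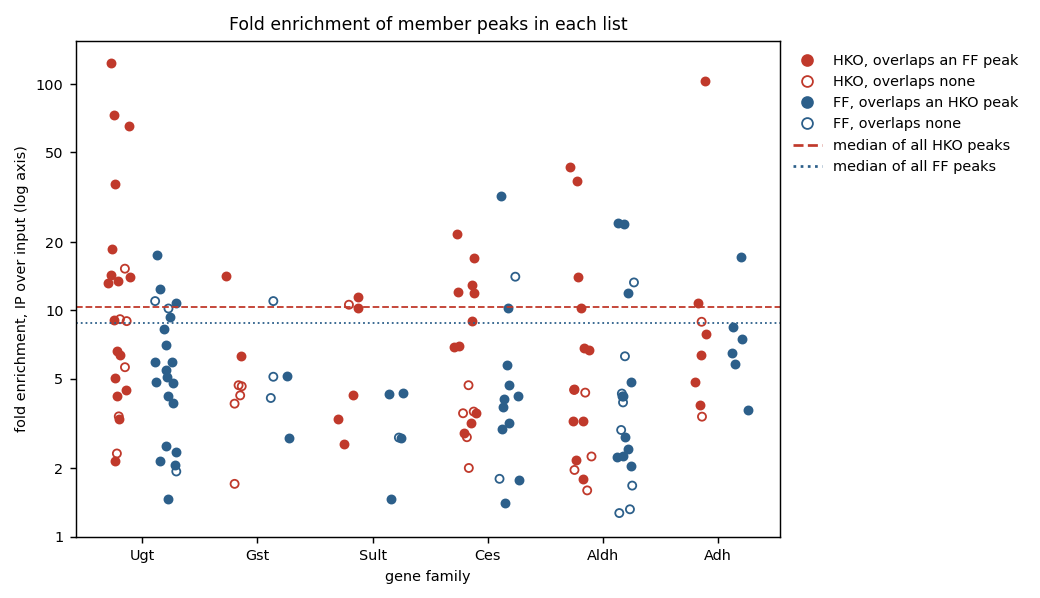
Fold enrichment over input (log axis) of every member peak by gene family, HKO left of FF in each family. Filled points overlap a peak of the other list, open points do not, and the lines mark the medians of all HKO peaks (10.4) and all FF peaks (8.80). Only 4 member peaks stood at percentile 95 or above of their list, all in the HKO list, on Ugt2b5, Adh6-ps1, Ugt3a1 and Ugt1a6a.

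Overlapping peaks were longer in the HKO list on many members. Among 51 pairs of peaks that were each other's largest overlap, the HKO peak had more exonic bases in 35 (68.6%, 55 to 79.7) and the FF peak in 10 (19.6%). Over all 10104 such pairs the HKO peak was longer in 50.6% and the FF peak in 37.6%. Median exonic length in member pairs was 387 bp in the HKO list and 270 bp in the FF list, against 330 bp in HKO and 300 bp in FF over all pairs. The limits were the same to the base in 6 member pairs (11.8%, against 6.87% of all pairs), on Ugt2b5, Ugt3a1, Sult1a1, Ces1c, Ces3b and Adh1. In 2 places a single HKO peak covered a pair of separate FF peaks, on Ugt1a5 and on Ugt2b34, and on Sult2a8 an FF peak overlapped 2 HKO peaks. Such cases were not counted over all peaks.

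**Figure D4:**
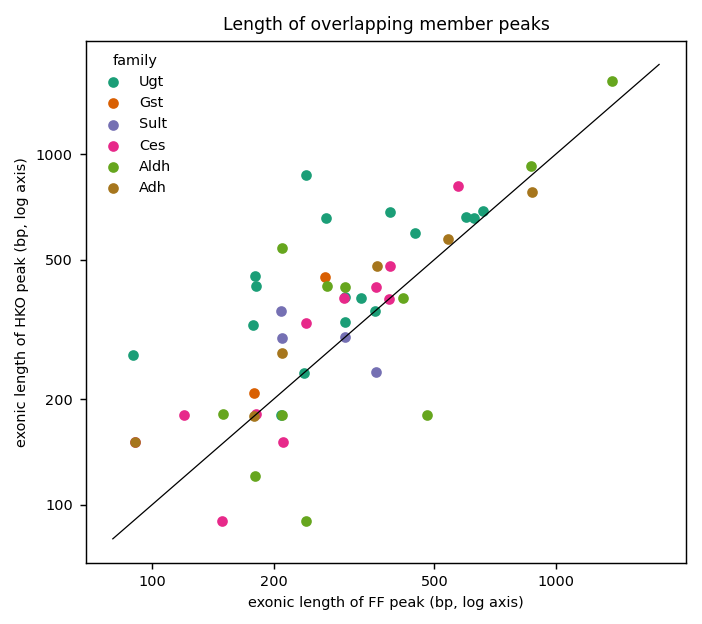
Exonic length in bp of overlapping member peaks, the HKO peak on the vertical and the FF peak on the horizontal axis (both log axes), coloured by family, with the line of equal length. Of 51 pairs, 35 lie above the line and 10 below it.

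The Ugt genes had peaks in both lists on 14 of 16 members. The other 2 were in FF only, beside 11.2% of all genes with a peak. Ugt members carried 23 HKO and 22 FF peaks. Where values stand in brackets after a peak, the fold is followed by log10 q. On chromosome 1 the Ugt1a genes each have a first exon of their own and share the remaining exons. All 6 Ugt1a members had peaks in both lists, and no peak lay within 1000 bp of the gene end in either. Ugt1a1, whose enzyme conjugates bilirubin, had an HKO peak of 659 bp at 88212198 to 88212856 (fold 3.31, log10 q -302), against a shared FF peak of 270 bp at 88212527 to 88212796 (2.36, -91.6). The FF list added a short peak from the first base of the gene, at 88211959 to 88212049 (1.94, -5.24), which overlapped no HKO peak. Ugt1a6a and Ugt1a6b, enzymes of small phenols, held the highest folds of the cluster in each list. Ugt1a6a stood at 65.5 (log10 q minus infinity) in HKO and 17.6 (-225) in FF, and Ugt1a6b at 36.1 (-244) in HKO and 10.8 (-134) in FF. Ugt1a9 had a start peak in both lists (4.18 in HKO and 7.05 in FF) and a strong HKO-specific peak of 328 bp at 88071345 to 88071672 (8.97, log10 q -270). The shared peaks of Ugt1a5 had folds of 14.4 in HKO and 5.48 and 2.15 in FF, and the single peak of Ugt1a10 had 14 in HKO and 9.40 in FF. Ugt1a6a, Ugt1a6b and Ugt1a10 had 1 peak per list. The start of Ugt1a1 is shown for its FF-specific peak, as the 30 bases before and 30 bases from the annotated start, 5′ to 3′ on the transcribed strand (RefSeq, GRCm38.p6), with bases inside the peak in capitals.
Ugt1a1 (plus strand, chr1:88211929-88211988): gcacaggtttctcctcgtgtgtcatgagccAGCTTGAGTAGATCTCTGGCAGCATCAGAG

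The Ugt2 genes on chromosome 5, which conjugate steroids and bile acids, included many start peaks. Ugt2b genes had 11 peaks in each list, and 5 of them in HKO and 8 in FF lay at the gene start. Over all peaks the start share was also larger in FF, 15.0% against 7.38% in HKO. Ugt2b1 had peaks at both ends with a log10 q of minus infinity in both lists, with folds of 13.2 in HKO and 5.90 in FF at the start and of 6.36 in HKO and 4.17 in FF before the end. Ugt2b36 had a single peak of 660 bp in HKO (13.5) and 600 bp in FF (8.26), also at minus infinity. Ugt2a3 had only a start peak, which spanned 657 bp in HKO (6.64) and 627 bp in FF (4.81). Ugt2b35 had a start peak (4.43 in HKO, 5.89 in FF) and a peak 1.8 kb before the end in HKO (5.01) and 1.9 kb before it in FF (2.51).

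Ugt2b5 held the highest fold of any member. Its peak at the gene end, 87124946 to 87125271 in HKO, had a fold of 124 (log10 q -260, percentile 99.5 of the HKO list), against 3.88 (-17.4) for the FF peak inside it. The start peak of Ugt2b5 had the same limits in each list, 87140103 to 87140340, with 18.7 (-31.5) in HKO and 5.09 (-82.9) in FF. A strong HKO-specific peak lay between them at 87139660 to 87139837 (2.33, -58). Ugt2b34 had 3 HKO and 2 FF peaks. Those at the start were shared (2.15 in HKO, 1.46 and 2.07 in FF), and the 2 strong HKO-specific ones lay toward its end, at 86889949 to 86890308 (5.61, -87.1) and 86890756 to 86891114 (9.15, -90.7). Ugt2b37 and Ugt2b38 had a start peak in the FF list and no HKO peak, at 87254639 to 87254788 (11, log10 q -4.15) and at 87424026 to 87424203 (10.2, -6.32).

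The starts of these copies are shown because the windows around them share long unbroken runs of letters. Ugt2b37 and Ugt2b38 had a peak only in FF, and Ugt2b5 and Ugt2b36 in both lists. Each line gives 30 bases before and 30 bases from the annotated start on the transcribed strand, 5′ to 3′, from RefSeq on GRCm38.p6, and capitals mark the bases inside a peak.
Ugt2b37 (minus strand, chr5:87254759-87254818): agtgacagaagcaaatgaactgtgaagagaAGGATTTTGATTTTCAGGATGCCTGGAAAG
Ugt2b38 (minus strand, chr5:87424174-87424233): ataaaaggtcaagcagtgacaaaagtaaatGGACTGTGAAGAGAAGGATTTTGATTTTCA
Ugt2b5 (minus strand, chr5:87140311-87140370): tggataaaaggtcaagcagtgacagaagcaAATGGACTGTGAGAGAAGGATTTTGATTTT
Ugt2b36 (minus strand, chr5:87092526-87092585): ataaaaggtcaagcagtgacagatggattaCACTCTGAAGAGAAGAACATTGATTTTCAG
Windows of 300 bases, 250 before to 50 after the start, shared an unbroken run of 82 bases between Ugt2b37 and Ugt2b38, of 72 between Ugt2b37 and Ugt2b5 and of 62 between Ugt2b38 and Ugt2b5. Ugt2b36 shared runs of 24 with Ugt2b37 and with Ugt2b5. The median longest run over 91 pairs of Ugt windows was 9 bases. Most of each window lies before the annotated start, so these runs do not show whether reads of the transcripts fit several copies. The sources used here do not say how such reads were mapped. Assignment of these start peaks to 1 copy was not tested.

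The Ugt3a genes on chromosome 15, whose human counterparts use other sugars than glucuronic acid, had peaks in both lists. Ugt3a1 had a peak with the same limits in each, 9306080 to 9306436, with a fold of 73 (log10 q -76.2, percentile 98) in HKO and 12.5 (-74.9) in FF. Ugt3a2 had 3 HKO peaks and 1 FF peak. The shared one had a fold of 9.04 (-228) in HKO and 4.78 (-111) in FF. The 2 strong HKO-specific peaks lay at the start (9335581 to 9338647, across an intron, 15.3, -35.9) and 224 bp from the gene end (9370567 to 9370895, 3.40, -38.8).

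Among the 9 Gst genes, only Gstz1 and Gstm6 had peaks in both lists, 4 had a single peak in HKO (13.2% of all genes with a peak were in HKO only) and 3 a single peak in FF (11.2% were in FF only). Gstz1, which isomerises maleylacetoacetate in tyrosine breakdown, had the smallest q of the family in each list, with a peak on chromosome 12 of 446 bp in HKO (6.29, minus infinity) and 268 bp in FF (2.73, -194). Gstm6, of the mu class on chromosome 3, had a shared peak across introns (14.2, -12.1 in HKO, the highest HKO fold of the family, and 5.15, -6.63 in FF) and a strong HKO-specific peak at the gene end, 107938847 to 107939113 (4.21, -39.2). Among the HKO-alone genes, Gstt1 of the theta class had an end peak on chromosome 10 at 75783813 to 75784048 (4.62, -88.4), and Gsta3 of the alpha class one on chromosome 1 at 21265338 to 21265545 (3.87, -11). Gstm2 had a peak 250 bp from its end at 107981908 to 107981996 (1.71, -4.35), and Gstt2 a mid-gene one at 75834506 to 75834596 (4.67, -3.40).
In the FF list alone, Gsto1, an omega-class enzyme that reduces dehydroascorbate, had a start peak across an intron on chromosome 19 at 47855032 to 47855301 (5.09, -6.82). Gstm5 had a start peak on chromosome 3 at 107895913 to 107896300 with the highest FF fold of the family (11, log10 q -1.92). Gstt3 had an end peak at 75774738 to 75774945 on chromosome 10 (4.10, -12.1). Of the theta genes on chromosome 10, Gstt1 and Gstt2 thus had a peak only in HKO and Gstt3 only in FF. The start windows of 28 Gst pairs shared no run longer than 9 bases. Sequence inside the genes was not compared, so whether reads were shared between the mu or theta copies was not tested.

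Both Sult members lie on chromosome 7 and had peaks in both lists. Sult1a1, the main phenol sulfotransferase, had 2 shared peaks in each. The peak at the gene end spanned 299 bp in HKO (11.5, log10 q minus infinity) and 210 bp in FF (2.74, -104), and the second, 126675463 to 126676480, had the same limits (10.2, minus infinity in HKO and 4.30, -157 in FF). Sult2a8, which sulfates bile acids in mouse liver, had 4 HKO and 3 FF peaks. Its 90 bp HKO-specific peak, 75 bp from the gene end, had 10.6 (-4.87), and its 120 bp FF-specific peak began at the first base of the gene (2.74, -1.92).

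The Ces genes, all on chromosome 8, had peaks in both lists on 8 of 12 members. Another 3 were in HKO only and 1 in FF only, beside 13.2% and 11.2% of all genes with a peak. Peaks across an exon junction made up 12 of the 16 Ces peaks in HKO, beside 13.9% of all HKO peaks. In FF they made up 5 of 13, beside 17.4% of all FF peaks. In the Ces1 group, which includes lipid hydrolases, 6 of 8 HKO and 4 of 6 FF peaks lay at the gene end. Over all peaks the end share was 30.9% in HKO and 26.5% in FF. Ces1c, an esterase secreted into plasma, had an end peak with the same limits in each list, 93099015 to 93100706, at minus infinity in both, with the highest HKO fold of the family (21.8, against 4.18 in FF). Ces1b had an end peak with a fold of 12.9 (minus infinity) in HKO and 1.78 (-19.1) in FF. Its start peak had 3.51 (-17) in HKO and 32.1 (-19.3) in FF, the highest FF fold of the family. Ces1e had an end peak at 17 (-185) in HKO and 10.2 (-60.6) in FF, and Ces1g, whose enzyme hydrolyses triglycerides, one at 6.86 in HKO and 5.74 in FF, both at minus infinity. Ces1f had an end peak in the HKO list alone at 93256295 to 93256593 (3.51, -121), and Ces1g a strong HKO-specific one at 93302488 to 93302666 (2.75, -13.9).

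The start peaks of Ces1b and Ces1c are shown in the same way as those above, where Ces1c had 2.86 (-103) in HKO and 3.74 (-101) in FF, since their windows shared a run of 58 bases, the longest of 36 Ces pairs (median 9).
Ces1b (minus strand, chr8:93079911-93079970): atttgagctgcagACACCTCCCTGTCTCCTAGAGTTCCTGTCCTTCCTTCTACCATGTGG
Ces1c (minus strand, chr8:93131254-93131313): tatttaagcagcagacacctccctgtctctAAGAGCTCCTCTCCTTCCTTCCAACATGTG
The window of Ces1b is set on a transcript start downstream of the first base of the gene, so its peak begins before the start shown. Most of each window lies before the start shown, so the shared run does not show which Ces1 copy these start peaks belong to. This was not tested.

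In the Ces2 group, Ces2a and Ces2g were in the HKO list alone. Ces2a had a peak across an intron at 104737442 to 104738724 (2.01, -11.1), and Ces2g had peaks at 104968249 to 104968518 (3.57, -10.6) and 104969028 to 104969177 (4.67, -5.75), all 3 strong. Ces2b had a peak 476 bp from its end in the FF list alone, at 104839498 to 104839736 (14.1, -3.11). Ces2c and Ces2e had only a start peak in each list, Ces2c at 11.9 (-12) in HKO and 4.07 (-5.68) in FF and Ces2e at 8.97 (-17.6) in HKO and 4.70 (-4.94) in FF. Ces3b had a shared peak toward the end of 810 bp in HKO (12.1, minus infinity) and 571 bp in FF (2.99, -160) and a start peak with the same limits (3.17 in HKO, 3.19 in FF). Ces3a had a shared peak at 6.94 (minus infinity) in HKO and 1.40 (-99.1) in FF. An FF-specific start peak of Ces3a had a log10 q of -25.8 and a fold of 1.80, below the limit of 2 for a strong peak.

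The Adh genes form a cluster on chromosome 3 and had 8 HKO and 6 FF peaks on 5 genes. None of the genes was in the FF list alone, beside 11.2% of all genes with a peak. In the HKO list alone were 2 of them, beside 13.2%. Adh1, the main ethanol dehydrogenase of liver, had a peak near its start with the same limits in each list, 138277645 to 138279817, at minus infinity in both (7.84 in HKO and 6.47 in FF). Adh6-ps1, named as a pseudogene, had 4 shared peaks in each list. One of them, 138386852 to 138387422 in HKO, had a fold of 103 (-59.2, percentile 99.1), against 8.44 (-39.8) in FF. The highest FF fold of the family was that of its start peak, 17.2 (-3.61), which had 6.36 (-2.72) in HKO. Adh7, a retinol-active enzyme, had a shared peak at 4.84 (-17.9) in HKO and 3.63 (-11) in FF. Adh5, which oxidises formaldehyde bound to glutathione, had an end peak in the HKO list alone at 138455174 to 138455381 (3.39, -57.4). Adh4 had a start peak in the HKO list alone at 138415486 to 138418115 (8.91, -6.33). Its start is shown as the 1 start peak of the family that was HKO-specific, with capitals inside the peak. As for Ces1b, the window is set on a transcript start downstream of the first base of the gene. The peak therefore begins before the start shown.
Adh4 (plus strand, chr3:138415467-138415526): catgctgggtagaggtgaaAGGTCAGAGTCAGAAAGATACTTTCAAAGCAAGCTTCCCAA

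The Aldh genes had 16 HKO and 19 FF peaks on 13 members, 9 of them in both lists. HKO-specific peaks numbered 5 of 16, beside 28.5% of all HKO peaks, and FF-specific ones 8 of 19, beside 25.2% of all FF peaks, and 1 of each was strong. Aldh8a1, an enzyme of tryptophan breakdown on chromosome 10, had the highest HKO fold of the family in a peak of 927 bp toward its end (42.9, minus infinity), against 868 bp in FF (12, minus infinity). Its start peak had folds of 4.49 in HKO and 4.19 in FF. Aldh18a1, which makes the precursor of proline, had an end peak on chromosome 19 at 37.3 (-11.3) in HKO and 24.3 (-8.09) in FF, the highest FF fold of the family. Aldh1b1, a mitochondrial enzyme, had the longest member peak of each list, 1615 bp in HKO (14, minus infinity) and 1376 bp in FF (24, -306), and a second overlapping pair (6.79 in HKO, 2.28 in FF).
Aldh2, the mitochondrial enzyme of acetaldehyde, had 3 peaks in each list on chromosome 5. Of these, 2 overlapped between the lists (6.66 and 3.25 in HKO, 2.76 and 2.43 in FF), while the start peaks, 121593376 to 121593525 in HKO (1.60, -21.1) and 121593585 to 121593764 in FF (13.3, -4.09), lay 59 bases apart. Aldh4a1, of proline breakdown, had 2 shared peaks (10.2 and 3.24 in HKO, 4.18 and 2.24 in FF) and an FF-specific end peak (1.27, -3.26). Aldh3a2, a fatty aldehyde dehydrogenase, had a shared peak (2.17 in HKO, 2.06 in FF) and an FF-specific start peak (3.92, -4.30). Aldh16a1 had a shared peak (1.80 in HKO, 4.82 in FF) and an FF-specific end peak (1.68, -4.17).

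Aldh7a1 and Aldh5a1 had peaks in both lists with no overlap. Aldh7a1, of lysine breakdown on chromosome 18, had an HKO peak of 90 bp at 56562583 to 56562672 (4.45, -2.04) and the 1 strong FF-specific peak of the family, at 56560823 to 56562296 (4.29, -23). Aldh5a1, of GABA breakdown, had an HKO end peak of 150 bp (2.26, -3.82) and an FF peak of 91 bp (2.96, -2.07) on chromosome 13. In the HKO list alone were Aldh9a1, of carnitine synthesis, with an end peak on chromosome 1 at 167368113 to 167368292 (1.97, -12.4), and Aldh1a7, a relative of retinal dehydrogenase, with the strong peak of the family, at its start on chromosome 19 at 20727053 to 20727526 (4.33, -9.63). In the FF list alone were Aldh1l1, a folate enzyme, on chromosome 6 at 90569809 to 90570830 (1.32, -5.07), and Aldh3b1, with an end peak on chromosome 19 at 3913669 to 3913847 (6.27, -1.93).

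**Figure D5:**
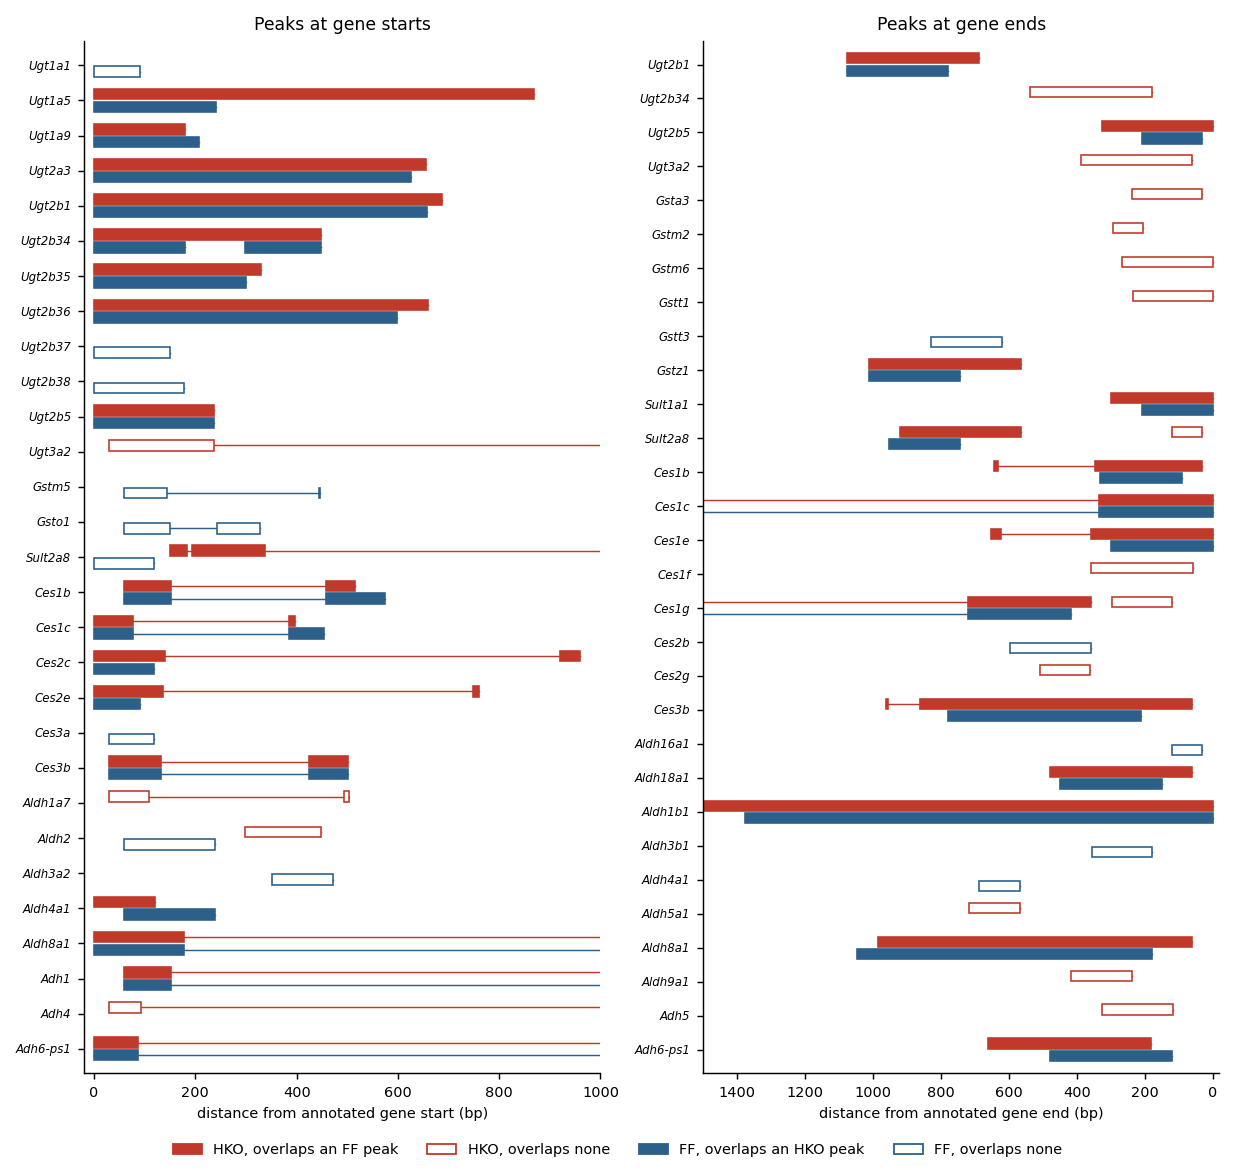
Exon blocks of member peaks centred within 500 bp of the gene start (left) or 1000 bp of the gene end (right), by distance from that point in bp, with thin lines for introns and HKO above FF for each gene. Filled blocks overlap a peak of the other list and open ones do not: open blocks at starts are 4 HKO and 9 FF peaks, and those at ends 13 HKO and 5 FF peaks.

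The 5′ limit of start peaks often fell on the annotated gene start. It lay within 2 bp of the gene start in 14 of 22 HKO and 17 of 27 FF start peaks. No member peak reached upstream of the annotated gene start, and whether peak calling set this limit was not tested. The same count was not made over all peaks. RefSeq windows were given for 48 of the 57 members, and for 20 windows of 19 genes the start base lay inside a peak. Some windows, as for Ces1b and Adh4, are set on a transcript start downstream of the gene start, and their peaks begin before it. The first transcribed base was A in 12 of the 20 (60%, 38.7 to 78.1), in 30 of 55 windows of all members (54.5%, 41.5 to 67) and in 34.4% of 32851 RefSeq windows. The letters GGAC, a core in which m6A is often found, occurred on the transcribed strand within the first 50 bases in 3 of the 20 (15.0%, 5.24 to 36), and in 18.9% of all windows. Sequence farther into the transcripts was not used here.

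The pathway around the members was followed in 7 lists of 107 genes. A peak was present on 85 of them, with 72 in both lists, 8 only in HKO (9.41%, against 13.2% of all genes with a peak) and 5 only in FF (5.88%, against 11.2%). All 15 xenobiotic receptors and regulators with a peak, among 16, had peaks in both lists. Of 10 genes for the supply of cofactors to glucuronidation and sulfation, Ugp2, which makes UDP-glucose, and Ugdh, which converts it to UDP-glucuronic acid, had a start peak in the FF list alone (12, log10 q -21 and 12.5, -2.52). Of 9 genes of glutathione synthesis and microsomal glutathione transferases, Gsr, the glutathione reductase (4.90, -2.73), and Hpgds (13.3, -2.54) were in the FF list alone.
Among 18 other carbonyl and retinoid oxidoreductases, the quinone reductase Nqo1 (28.4, -14) and Aox1 (10.2, -1.71) had a peak only in HKO, and the carbonyl reductase Cbr3 (11, -1.92) only in FF. Of 10 other esterases, Pon1, a plasma lactonase (3.57, -11.5), and Cmbl (10.2, -2.22) were in the HKO list alone, as were Nat1 (11.9, -2.14) of 12 other conjugating enzymes and the transporters Abcb1a (6.22, -2.68), Abcb4, which exports phospholipid into bile (4.78, -26.4), and Slco1a4 (3.03, -8.86) of 11.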

How the data were processed

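MeRIP-seq of liver RNA was deposited as 2 peak lists, HKO and FF, grouped by the titles of their 4 libraries. Per the submitters' processing notes, fastp 0.19.11, BWA 0.7.12, HOMER 4.9.1 and GRCm38.p6 were used. The authors called peaks with exomePeak 2.16.0, IP against input per genotype, at a q-value of 0.05, per the series design text. The sources disagree on the antibody (Synaptic Systems or Millipore) and the library kit (New England Biolabs or NuGEN). The deposited score column is the p-value of each peak, since its log10 matched the listed log10 p to within 0.02. The deposited log10 q is used as a score, and the authors' fold column is a linear ratio, IP to input. Both serve only to describe peaks inside their own list.

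Overlaps were computed with Python 3.11.15, pandas 2.3.3, numpy 2.4.6 and scipy 1.17.1, and figures drawn with matplotlib 3.10.9. The overlap code was run on an altered copy of the FF list with known answers, which checks the code and not the peaks. Start and end windows came from RefSeq gene spans of GRCm38.p6. Exon junctions and introns are those between the exon blocks of a deposited peak, and coding and untranslated positions are not given. Coordinates count from base 1. All 57 member symbols matched RefSeq. Each member is named with its number of peaks. Positions, folds and q are given for members in 1 list alone, strong list-specific peaks and the extreme peaks of each family. The members, lists and windows were chosen with earlier results of these data known. A planned comparison of protein sequences was replaced by shared runs of start windows, chosen after the lists were seen. No p-value is given between genotypes.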

Additional observations from a re-analysis of the deposited data

How the results depend on the processing

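Alternatives to the processing were a q of 1e-05 or less, a fold of 2 or more, lists of equal length, an overlap of at least 50% of the shorter peak or of whole spans, and windows of 200 bp and 500 bp. Of 43 values recomputed over 9 counts, 38 stayed within 1.5 times the reported count. The HKO-alone genes numbered 10 to 11 (reported 11), the FF-alone genes 6 to 9 (reported 8) and the genes in both lists 33 to 37 (reported 38). FF-specific member peaks fell to 8 at a q of 1e-05 or less, against 17 as reported, and those near the gene start to 4, against 9. Those near the gene end, 5 as reported, numbered 1 at a q of 1e-05 or less, 3 at a fold of 2 or more and 3 in the smaller windows. HKO-specific member peaks numbered 22 to 26 (reported 24). No paired analysis was possible because neither genotype has numbered replicates. What depth limits cannot be said without read totals.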
